A study of Homo sapiens with 12 samples.

Results

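The genes described here are the numbered ZNF zinc finger genes that changed RNA processing after loss of TDP-43 in human neurons. Every gene whose symbol is ZNF followed by digits only was taken if it was listed in at least 1 of the authors' 4 deposited tables of polyadenylation, cryptic polyadenylation and splicing changes, and antisense and divergent transcripts were left out. This gave 153 genes of 4719 named genes in the 4 tables. The cells were WA01, an established line of human embryonic stem cells, turned into cortical neurons by expression of the transcription factor NGN2. One group received a short hairpin RNA (shRNA) against TDP-43, the RNA-binding protein encoded by TARDBP that is lost from neuronal nuclei in amyotrophic lateral sclerosis and frontotemporal dementia, and the other received a scrambled shRNA, each for 7 days. Both groups therefore carried NGN2 and a hairpin, and all neurons came from a single stem cell line. Each group had 3 RNA-seq libraries and 3 from 3' end-seq, a method that reads the last bases of polyadenylated transcripts, 12 in all. Nothing in the labels tells whether the 3 were separate cultures, and the deposited p-values then cover only the spread between these libraries, which may be technical. The tables used hold 1 value per comparison or per group and list changed items only, so the number of genes tested, the depth and the spread between libraries are unknown. The levels of TARDBP, of neuronal markers and of the ZNF genes themselves were not analysed here.

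ZNF genes encode proteins with C2H2 zinc fingers, small folds held by a zinc ion that line up in arrays and read DNA sequence. The largest group also carries a KRAB domain, which recruits the corepressor TRIM28 and, through it, enzymes that methylate histones and DNA, and many KRAB zinc finger proteins silence transposable elements. The genes have multiplied by tandem duplication and lie in clusters, mainly on chromosome 19, where neighbours can be close in sequence and overlap. The finger array is usually encoded in the last exon, so the choice of the last exon and of the poly(A) site can decide whether a transcript keeps its fingers or only the length of its 3' untranslated region.

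RefSeq (GRCh38.p14) holds 478 ZNF genes with a number only, of which 477 are protein coding. The 153 listed genes are 32.0% of them. The share of all RefSeq genes that were listed was not counted, so the 32.0% has no background to be read against. Chromosome 19 carries 241 of the 478 (50.4%) and 81 of the 153 listed genes (52.9%), against 6.52% of all 4552 listed genes with a RefSeq entry. The share listed was 33.6% of the ZNF genes on chromosome 19 and 30.4% of the 237 on other chromosomes. Along chromosome 19 the listed genes were uneven. They were 8 of 13 between 36 and 37 Mb (ZNF565, ZNF566, ZNF529, ZNF382, ZNF850, ZNF345, ZNF829 and ZNF568) and 7 of 10 between 21 and 22 Mb, but 0 of 8 between 22 and 23 Mb and 0 of 10 between 11 and 12 Mb. Which ZNF genes had enough RNA to be listed was not examined.

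Of the 153 genes, 78 were listed for splicing, 73 for polyadenylation in 3' end-seq, 18 for a cryptic poly(A) site and 14 for polyadenylation in RNA-seq. A single table listed 128 of them and 25 were in 2 or more. ZNF207, which binds microtubules and the checkpoint protein BUB3, was in all 4. ZNF423, a developmental regulator and partner of EBF factors, ZNF429 and ZNF287 were each in 3.

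The largest splicing changes were gains of junctions from 5' splice sites that the authors' annotation does not hold. In ZNF569, ZNF835 and ZNF584 a junction from an unannotated 5' site gained between 33.0 and 45.4 percentage points of its cluster in TDP-43 shRNA neurons over scrambled shRNA neurons in the authors' deposited table, and in ZNF569 and ZNF835 the annotated junction to the same acceptor lost 33.9 points. A cluster is a set of introns that share splice sites, and the values are changes of each intron's share of its cluster, so they sum to about 0 within one. A positive value was read as higher in TDP-43 shRNA neurons. Which group was subtracted is not stated, so this reading is an assumption. The largest positive change in STMN2, a known TDP-43 target, was 54.2 points. That value cannot settle the sign, because shares sum to about 0 and some junction gains under either reading. The adjusted p belongs to the cluster as a whole, with no value for its single introns.

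For some 5' sites the sequence could be read from the RefSeq windows of 300 bases around gene starts (250 before, 50 after). In ZNF528 this lets the gained and the lost 5' sites be compared directly. For ZNF644 and ZNF764 only the gained site is shown, and for ZNF529 only the lost one. The 20 ZNF splice sites found in such windows belong to 13 genes. Each line gives 30 bases 5' to 3' in the direction of the transcript, GRCh38.p14. The first 15 bases are exon, and the capitals mark the GT that opens the intron.
ZNF528 gained, chr19:52397651-52397680, plus strand: ttttgctctgcgcagGTaagatccgttttc
ZNF528 lost, chr19:52397886-52397915, plus strand: actgttttcgcagcaGTgcgtgagtttccc
ZNF528 annotated, chr19:52397890-52397919, plus strand: ttttcgcagcagtgcGTgagtttccctttg
ZNF644 gained, chr1:91021674-91021703, minus strand: gccacggagcctgagGTgagcggcggccgc
ZNF764 gained, chr16:30558471-30558500, minus strand: ccattttggatgaggGTacggagagaacgc
ZNF529 annotated, chr19:36573125-36573154, minus strand: ctgcggacgatggtgGTtagtgctattgtt

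Over all genes, 363 of 365 5' splice sites and 69 of 69 3' splice sites that fell in a RefSeq promoter window had GT or AG next to the deposited position, which checks how the table counts positions.

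ZNF528, a KRAB zinc finger gene, joined 3 alternative 5' sites to 1 acceptor at position 52398367 of chromosome 19. In the authors' deposited table the unannotated upstream site, 239 nt before the annotated one, gained 17.4 points in TDP-43 shRNA neurons over scrambled shRNA neurons. The annotated site lost 11.3 points and the unannotated site 4 nt before it lost 6.1 points in the authors' deposited table (adjusted p = 0.00637). The gained site lies before the RefSeq start of ZNF528 and within the bounds of its neighbour ZNF880, so the gene it belongs to is uncertain.

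ZNF569, a KRAB repressor, had the largest change of the family. The junction from the unannotated 5' site at 37466739 to the acceptor at 37465473 on chromosome 19 was 45.4 points higher in TDP-43 shRNA neurons than in scrambled shRNA neurons in the authors' deposited table (adjusted p = 0.000309). The annotated 5' site, 345 nt upstream at 37467084, lost 33.9 points to that acceptor in the authors' deposited table, and its junction to an unannotated acceptor at 37466804 lost 11.4 points. All gained use in this cluster was thus at the downstream 5' site, and both junctions of the annotated site lost share. The unannotated acceptor at 37466804 lies upstream of the unannotated 5' site at 37466739, so these could also bound an unannotated exon. The junction into such an exon lost share while the junction out of it gained, and which form was made was not tested.

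ZNF835 also gained at an unannotated 5' site, at a much shorter distance from the annotated one. Its unannotated 5' site lies 27 nt from the annotated one, and the junction from it was 40.6 points higher in TDP-43 shRNA neurons than in scrambled shRNA neurons in the authors' deposited table (adjusted p = 0.0101). The annotated site lost 33.9 points and a further unannotated site lost 6.7 points in the authors' deposited table. In ZNF584 a junction of 13862 nt from an unannotated 5' site gained 33.0 points in TDP-43 shRNA neurons over scrambled shRNA neurons in the authors' deposited table (adjusted p = 0.0111), and the other 5 introns of the cluster lost between 2.9 and 14.0 points. The gained 5' site lies 7503 and 8429 nt upstream of the other 5' sites of the cluster, and its junction passes over them.

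ZNF45 changed its 3' splice site in place of its 5' site. The acceptor 63 nt from the annotated one gained 25.2 points in TDP-43 shRNA neurons over scrambled shRNA neurons, and the annotated one lost the same 25.2 points, in the authors' deposited table (adjusted p = 0.024). In ZNF423 the annotated intron of 91897 nt lost 17.4 points, and a junction into an unannotated exon inside it gained 12.3 points while the junction out of that exon gained 5.1 points, in the authors' deposited table (adjusted p = 0.000263). These 3 introns have the form of a cassette exon of unannotated sequence between positions 49640443 and 49640505 of chromosome 16, used more in TDP-43 shRNA neurons.

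Other clusters with large changes lost an annotated intron. In the authors' deposited table the largest change was a loss of 23.7 points in ZNF565 (adjusted p = 7.49e-05), with gains of 7.5 points at each of 2 unannotated 5' sites. ZNF559 lost 23.6 points at one annotated acceptor and gained 17.6 points at another 78 nt downstream in the authors' deposited table (adjusted p = 0.0279). ZNF549 lost 23.2 points at an annotated intron and gained 16.5 points at a junction to an unannotated acceptor within the bounds of its neighbour ZNF550 in the authors' deposited table (adjusted p = 0.0117). In ZNF544 an annotated intron lost 16.9 points and an unannotated 5' site gained 11.1 points in the authors' deposited table (adjusted p = 0.0048). Because shares sum to about 0 within a cluster, any loss in it must come with a gain elsewhere in it.

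The other genes whose 5' site is printed above, ZNF644, ZNF529 and ZNF764, were chosen after their values were seen, because a window held the sequence. ZNF644, a partner of the histone methyltransferases EHMT1 and EHMT2, gained 12.6 points at its printed site in TDP-43 shRNA neurons over scrambled shRNA neurons in the authors' deposited table (adjusted p = 2.31e-08). ZNF529 lost 16.5 points at its printed annotated site and gained 12.9 points at an unannotated site 97 nt downstream in the authors' deposited table (adjusted p = 9.9e-05). ZNF764 exchanged 9.7 points between the printed unannotated site and an annotated one in the authors' deposited table (adjusted p = 0.0462). The printed ZNF764 site lies before the RefSeq start of the gene, so its assignment to ZNF764 is uncertain.

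Across the family, 84 clusters with 563 introns in 78 genes were listed. At least 1 intron changed by 10 points or more in 34 of the 84 clusters (40.5%), against a background of 33.0% of all 2994 listed clusters. The median over clusters of the largest change was 8.4 points, against 6.4 over all listed clusters. ZNF clusters held more introns (median 5.5 against 4) and were longer (median 15070 nt against 7486.5 nt), and the part of these 2 properties in the sizes of change was not tested. The authors labelled 80 of the 84 clusters cryptic (95.2%), against 88.8% of all. How many of these held an intron with an unannotated splice site was not counted, since the label may also cover new pairs of annotated sites.

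Of 55 ZNF introns that changed by 10 points or more, 33 joined annotated sites, and 12 of these had a positive and 21 a negative value (36.4% positive, against 40.2% of 1098 over all genes). Of 11 with an unannotated 5' site, 9 were positive (81.8%, against 74.5% of 188 over all genes). Of 9 with an unannotated 3' site, 4 were positive (44.4%, against 65.7% of 207). Both classes together gave 13 positive of 20 (65.0%), against a background of 69.9% of 419 introns over all genes, so the family's share was near that of the whole table. These are counts of introns, which share clusters and are not independent.

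**Figure D1:**
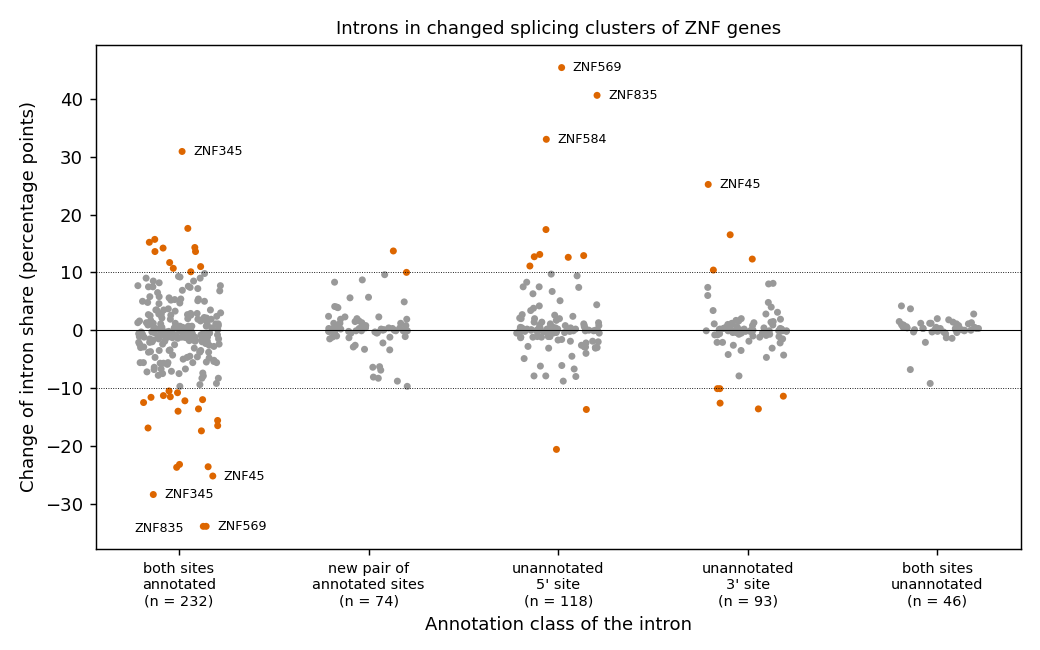
Change of intron share after TDP-43 shRNA against scrambled shRNA, in percentage points (vertical axis), for the 563 introns of the 84 changed ZNF clusters by annotation class (horizontal axis); each point is 1 intron from the authors' deposited table, orange past 10 points (dotted lines). The 3 largest gains, in ZNF569, ZNF835 and ZNF584, stand in the class with an unannotated 5' site, and the largest losses, in ZNF569 and ZNF835, join annotated sites.

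Some introns have an end within the bounds of a neighbouring ZNF gene, which bears on which gene a change belongs to. Of the 563 introns, 61 (10.8%) had an end outside the RefSeq bounds of the gene they were listed under. Another ZNF gene's bounds, on either strand, held an end of 48 introns, listed under 14 genes, and 8 of these 48 changed by 10 points or more. The 48 include introns wholly inside their own gene where bounds overlap, so they do not count junctions between genes. In the cluster listed under ZNF382, a KRAB repressor, 2 junctions of about 34 kb (34027 and 33997 nt) ran from exons ending at 36573525 and 36573555, within the bounds of ZNF529 but on the opposite strand, to the acceptor at 36607552. They gained 10 and 13.7 points in TDP-43 shRNA neurons over scrambled shRNA neurons in the authors' deposited table (adjusted p = 1.88e-18). The junction from an unannotated 5' site inside ZNF382 to the same acceptor lost 13.7 points in the authors' deposited table. In ZNF616 an annotated intron lying within its neighbour ZNF836 lost 12 points in the authors' deposited table (adjusted p = 0.035).

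In 3' end-seq the authors listed 73 of the 153 ZNF genes, 62 called longer and 11 called shorter. In each longer gene the poly(A) site that rose in TDP-43 shRNA neurons lies downstream of the one that fell, and in each shorter gene it lies upstream. The share called longer was 84.9%, against a background of 84.7% of all 2220 listed genes, and the share called shorter was 15.1%, against 15.3%. The split was thus near that of the whole table. The median change of the usage index in longer genes was 0.204, against 0.214 over all longer genes in the authors' deposited table. The index is a measure of the use of one site against the other, and its scale is not stated.

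The largest change toward the distal site was in ZNF345, with 0.464 in the authors' deposited table (adjusted p = 4.87e-09). ZNF217, an oncogene that acts as a transcriptional repressor with CTBP and LSD1, followed with 0.443 in the authors' deposited table (adjusted p = 2.06e-78). Its sites lie 1345 nt apart, and the rising one is 1 nt before the RefSeq end. ZNF738 (0.424), ZNF783 (0.366), ZNF382 (0.350), ZNF484 (0.335), ZNF614 (0.321) and ZNF429 (0.296) completed the 8 largest in the authors' deposited table, with adjusted p between 1.87e-223 (ZNF783) and 4.65e-45 (ZNF484).

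Of these 8, ZNF345, ZNF382 and ZNF429 were also in other tables. The remaining longer genes that other tables list had smaller changes, which in the authors' deposited table were 0.242 for ZNF655, 0.197 for ZNF451, a SUMO ligase, 0.197 for ZNF680, and 0.125 for ZNF462, a gene of neurodevelopment. Still smaller values were 0.123 for ZNF532, 0.119 for ZNF207, 0.114 for ZNF230, 0.114 for ZNF287, 0.111 for ZNF782 and 0.111 for ZNF438 in the authors' deposited table. ZNF589, ZNF423 and ZNF616 had 0.105, 0.105 and 0.101 in the authors' deposited table, the last at the low end of the range. No listed gene of the whole table was under 0.100 in size, so smaller shifts are not seen here.

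The pairs of sites ranged widely in distance. In longer ZNF genes they were between 69 nt (ZNF282) and 61701 nt (ZNF451) apart, with a median of 3183.5 nt, against 2555 nt over all longer genes. Pairs more than 10000 nt apart made up 13 of 62 (21.0%), against 20.3% over all longer genes. Of the rising sites, 36 of 62 (58.1%) lay within 25 nt of the RefSeq 3' end, against 66.5% of 1774 longer genes with a RefSeq entry. Of the falling sites, 3 of 62 lay there (4.84%), against 2.99%. In those 36 genes usage moved toward the annotated end.

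In 8 longer genes the rising site lay beyond the annotated end, by 2688 to 19811 nt. The farthest were in ZNF345 (19811 nt, inside the bounds of ZNF829), ZNF589 (18916 nt, inside NME6) and ZNF783 (12306 nt, inside LOC155060), followed by ZNF438 (7892 nt), ZNF470 (6014 nt), ZNF135 (4257 nt), ZNF843 (2839 nt) and ZNF623 (2688 nt). In 3 of these 8, ZNF589, ZNF783 and ZNF843, the falling site was within 9 nt of the annotated end, so usage moved off the annotated end and past it. These overlaps were taken without regard to strand. The ZNF345 site is on the plus strand, whereas ZNF829 lies on the minus strand. Whether such far sites belong to the named gene or to a neighbour was not tested.

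All 11 shorter genes are named here. The largest was ZNF35, with -0.481 in the authors' deposited table (adjusted p = 4.61e-67), whose falling site is 8 nt before the RefSeq end and whose rising site is 10056 nt before it. ZNF497 had -0.429 in the authors' deposited table (adjusted p = 1.22e-06) with a falling site 1 nt before the end. ZNF263, a SCAN and KRAB domain factor, had -0.125 in the authors' deposited table with a falling site exactly at the end. ZNF568, whose mouse counterpart represses a placental transcript of Igf2, had -0.265, ZNF333 -0.262, ZNF765 -0.205 and ZNF577 -0.196 in the authors' deposited table. ZNF789 (-0.181), ZNF93 (-0.145), ZNF571 (-0.125, adjusted p = 0.0355) and ZNF493 (-0.112) were the smallest beside ZNF263 in the authors' deposited table. ZNF93 is a KRAB repressor of LINE-1 elements.

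Shorter pairs were far apart. Their median distance was 10048 nt and 6 of 11 exceeded 10000 nt (54.5%), against a median of 9829 nt and 49.3% over all shorter genes. The falling site lay within 25 nt of the RefSeq end in 3 of 11 (27.3%), against 49.8% of 299 shorter genes with a RefSeq entry. In 4 of the 11 (ZNF765, ZNF789, ZNF93 and ZNF571) the falling site lay past the RefSeq end, by 957 to 13945 nt. In ZNF571 and ZNF789 the rising site was the annotated end itself, 1 nt past it and 12 nt before it, while the falling site lay 9479 and 13945 nt past. For these 2 genes the call shorter therefore denotes more use of the annotated end. Of the shorter genes 8 were on chromosome 19 and 3 elsewhere, and of the longer genes 30 and 32.

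**Figure D2:**
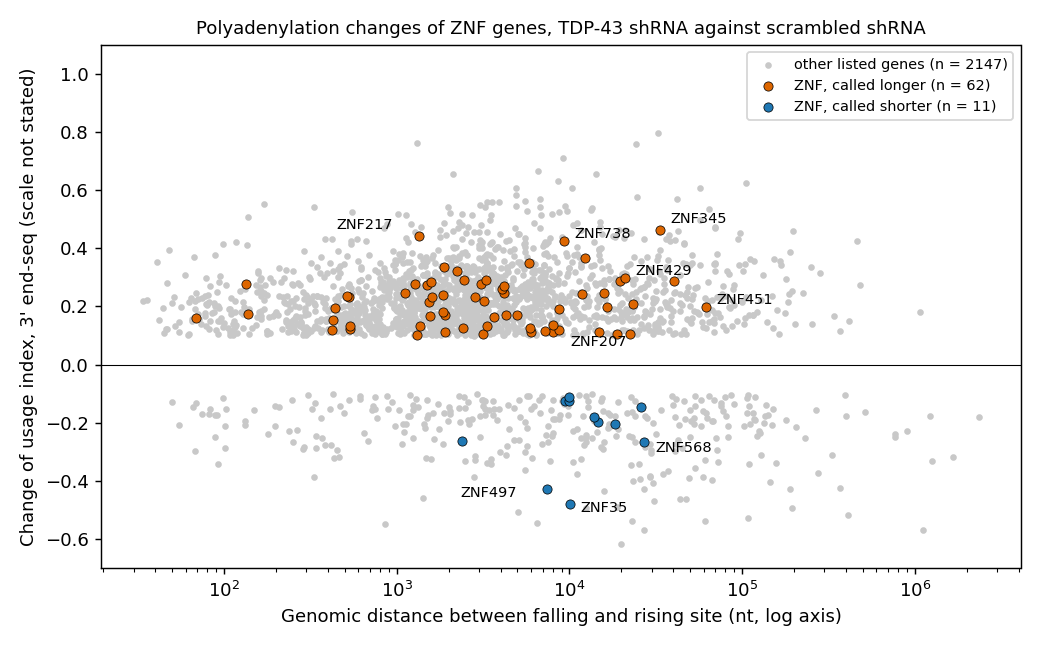
Change of the usage index in 3' end-seq, TDP-43 shRNA against scrambled shRNA (vertical axis, positive for longer), by distance from the falling to the rising site in nt (horizontal log axis); each point is a gene of the authors' deposited table, ZNF genes in orange (62 longer) and blue (11 shorter), the other 2147 in grey. The ZNF genes lie within the grey field, with pairs of 69 to 61701 nt in longer and 2391 to 27181 nt in shorter genes.

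RNA-seq, from other libraries, listed 14 ZNF genes for polyadenylation. All 14 were called distal, against a background of 95.0% of all 841 listed genes. The index runs past 1 here, so its values cannot be set against those of 3' end-seq, and the subtracted group is not stated. Distal was read as more distal use in TDP-43 shRNA neurons. ZNF25 led with 1.87 in the authors' deposited table (adjusted p = 0.00345), followed by ZNF667 with 1.34 (adjusted p = 0.00358) and ZNF14 with 1.19 (adjusted p = 1.48e-08). ZNF226 (1.08), ZNF266 (1.05), ZNF561 (1.01), ZNF593 (0.987) and ZNF622 (0.841) completed the 8 largest in the authors' deposited table. ZNF593 and ZNF622 are factors of large ribosomal subunit maturation and not DNA-binding repressors.

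The lower part of the RNA-seq list held genes with other roles. The authors' deposited table gave 0.797 for ZNF207, 0.660 for ZNF638, which takes part in silencing of unintegrated retroviral DNA, and 0.615 for ZNF236. It gave 0.489 for ZNF445, a KRAB regulator of imprinted genes, with the smallest adjusted p of the 14, 3.56e-19 in the authors' deposited table. ZNF263 (0.483) and ZNF287 (0.348) were the smallest in the authors' deposited table. The median over the 14 was 0.914, against 0.765 over all distal genes.

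Both assays listed 3 ZNF genes. ZNF207 and ZNF287 were longer in 3' end-seq and distal in RNA-seq, as were 211 of the 226 genes of all kinds in both tables. ZNF263 was shorter in 3' end-seq (-0.125) and distal in RNA-seq (0.483, adjusted p = 0.0212) in the authors' deposited tables, 1 of 7 genes with that combination. Its falling site in 3' end-seq lies inside the bounds of TIGD7, whose strand was not compared, and its rising site 9945 nt upstream.

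Cryptic poly(A) sites, which the authors list where usage is low in scrambled shRNA neurons, were present in 18 ZNF genes with 1 site each, of 457 sites in all. Usage of the site had a median of 16.1% in TDP-43 shRNA neurons and 3.54% in scrambled shRNA neurons in the authors' deposited table, against 19.1% and 3.27% over all 457 sites. These are single values per group with no spread, and the listing itself fixes that usage is higher in TDP-43 shRNA neurons. The lowest usage in TDP-43 shRNA neurons was 11.97% (ZNF589) and the highest usage in scrambled shRNA neurons 5.40% (ZNF138) in the authors' deposited table, and over all 457 sites these limits were 10.7% and 5.99%, so the separation of the groups belongs to the whole list and not to the ZNF genes. The sites lay 6 each in a 3' untranslated region, in an extension past it and in an intron (33.3% each), against 31.5, 35.0 and 28.2% of all 457 sites. Exonic sites numbered 0 in ZNF genes and 24 (5.25%) over all genes, so the classes were near those of the whole list.

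The sites past the annotated region included the highest. ZNF384, a factor known as a fusion partner in acute leukaemia, used a site 1441 nt past its RefSeq end at 44.5% in TDP-43 shRNA neurons and 3.13% in scrambled shRNA neurons in the authors' deposited table. ZNF749 used a site 9024 nt past its end at 31.2% in TDP-43 shRNA neurons and 3.87% in scrambled shRNA neurons in the authors' deposited table. This site lies within the bounds of the vomeronasal receptor gene VN1R1, whose strand was not compared. The other extensions were lower. ZNF517 (3455 nt past its end), ZNF574 (1671 nt), ZNF284 (4110 nt) and ZNF138 were used at 15.5 to 18.98% in TDP-43 shRNA neurons and 1.77 to 5.40% in scrambled shRNA neurons in the authors' deposited table. The ZNF138 site is labelled an extension but lies inside the RefSeq gene, 25945 nt before its end.

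Within 3' untranslated regions ZNF429 stood above the others. Its site, 1 nt past the RefSeq end, was used at 32.4% in TDP-43 shRNA neurons and 2.13% in scrambled shRNA neurons in the authors' deposited table. The remaining 5 (ZNF230, ZNF207, ZNF287, ZNF20 and ZNF423) were used at 13.5 to 16.6% in TDP-43 shRNA neurons and 2.39 to 4.69% in scrambled shRNA neurons in the authors' deposited table. In ZNF429, ZNF230, ZNF20 and ZNF423 the site called cryptic was the annotated end to within 13 nt. For these genes cryptic therefore describes low use in scrambled shRNA neurons and not a missing annotation.

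Intronic sites, which the authors mark as premature, were led by ZNF577 with 24.1% in TDP-43 shRNA neurons and 4.23% in scrambled shRNA neurons in the authors' deposited table. ZNF93 had 20% in TDP-43 shRNA neurons and 3.76% in scrambled shRNA neurons in the authors' deposited table. ZNF595, ZNF438, ZNF782 and ZNF589 had 17.1, 14.1, 13.2 and 11.97% in TDP-43 shRNA neurons and 4.05, 3.18, 2.13 and 1.47% in scrambled shRNA neurons in the authors' deposited table. Premature use did not always go with a shorter call. Of the 5 of these genes in the 3' end-seq table, ZNF577 and ZNF93 were called shorter and ZNF438, ZNF782 and ZNF589 longer. For ZNF438 and ZNF589 the site called intronic lies 7892 and 18916 nt past the RefSeq end of the gene, so the annotation used by the authors and RefSeq place it differently.

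Of the 18 genes, 10 were also in the 3' end-seq table, 8 as longer and 2 as shorter. In 9 of the 10 the cryptic site was the rising site itself, and in ZNF230 it lay 373 nt from it. Both tables come from the same libraries, so this overlap is not a second measurement. The same overlap is the basis for reading rising as rising with TDP-43 shRNA, so it is not separate support for that direction.

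**Figure D3:**
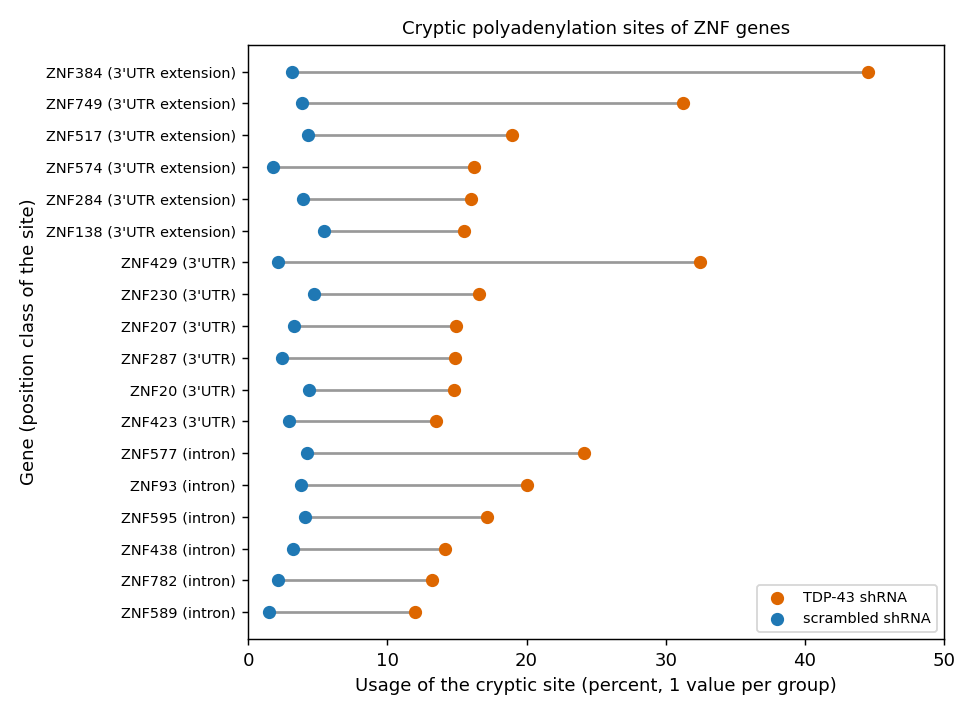
Usage of the cryptic poly(A) site in percent (horizontal axis) in 18 ZNF genes (rows, grouped by position class), with orange points for TDP-43 shRNA and blue points for scrambled shRNA, 1 value per group from the authors' deposited table. Orange points for ZNF384, ZNF429 and ZNF749 lie farthest to the right; the gap between the colours is set by the listing, since all 457 listed sites are at 10.7% or more with TDP-43 shRNA and 5.99% or less with scrambled shRNA.

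In 13 genes with both a 3' end-seq change and a splicing change the 2 could be placed on the same map. In longer genes the sum of changes was taken over introns that span the falling, proximal site and so skip it. It was positive in 4 of the 5 ZNF genes with such an intron (ZNF345, ZNF429, ZNF451 and ZNF655) and negative in ZNF680, against 39 positive of 52 over all longer genes. In shorter genes the proximal site is the rising one, and the sum was positive in 1 of 1 ZNF gene (ZNF568), against 7 of 27 over all shorter genes. The splicing values come from RNA-seq and the sites from 3' end-seq, which are separate libraries.

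ZNF345 showed the exchange most plainly. From the exon ending at 36851904 on chromosome 19, the junction to 36876785, which ends 2789 nt before the falling poly(A) site, lost 28.4 points in TDP-43 shRNA neurons over scrambled shRNA neurons in the authors' deposited table. The junction from the same exon to 36892818, which skips that site, gained 30.9 points in the authors' deposited table (adjusted p = 0.0466 for the cluster). The rising site at 36913029 lies 33455 nt from the falling one. The junction that ends before the falling site and the site itself thus both lost use.

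ZNF429 did the same with an unannotated acceptor. Junctions from 2 upstream 5' sites to the acceptor at 21518575, which lies 1150 nt before the falling site, lost 12.6 and 6.8 points in TDP-43 shRNA neurons over scrambled shRNA neurons in the authors' deposited table (adjusted p = 0.026 for the cluster). The 3 introns that skip the site gained 14.3 points in sum. The rising site 20944 nt downstream is the cryptic site described above.

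The remaining longer genes were less clear. In ZNF451 the 4 skipping introns gained 9.9 points in sum while the annotated junction to 57100603 lost 10.5 points in the authors' deposited table (adjusted p = 0.00143). In ZNF655, 7 skipping introns gained only 0.8 points in sum. ZNF680 went the other way, with a loss of 10.3 points in sum over its 2 skipping introns.

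ZNF568, called shorter, gained 13.6 points at the junction that ends 3213 nt before its rising site in TDP-43 shRNA neurons over scrambled shRNA neurons in the authors' deposited table (adjusted p = 0.000302). The intron that skips this site also gained, by 5.0 points, and an unannotated 5' site downstream of it lost 20.6 points in the authors' deposited table. In ZNF35 the cluster lies downstream of the rising site, and a junction that skips an annotated exon lost 8.1 points while those into and out of that exon gained 5.4 and 2.7 points in the authors' deposited table (adjusted p = 0.0345). In ZNF207, ZNF532, ZNF423, ZNF462, ZNF382 and ZNF616 no listed intron spanned the proximal site.

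**Figure D4:**
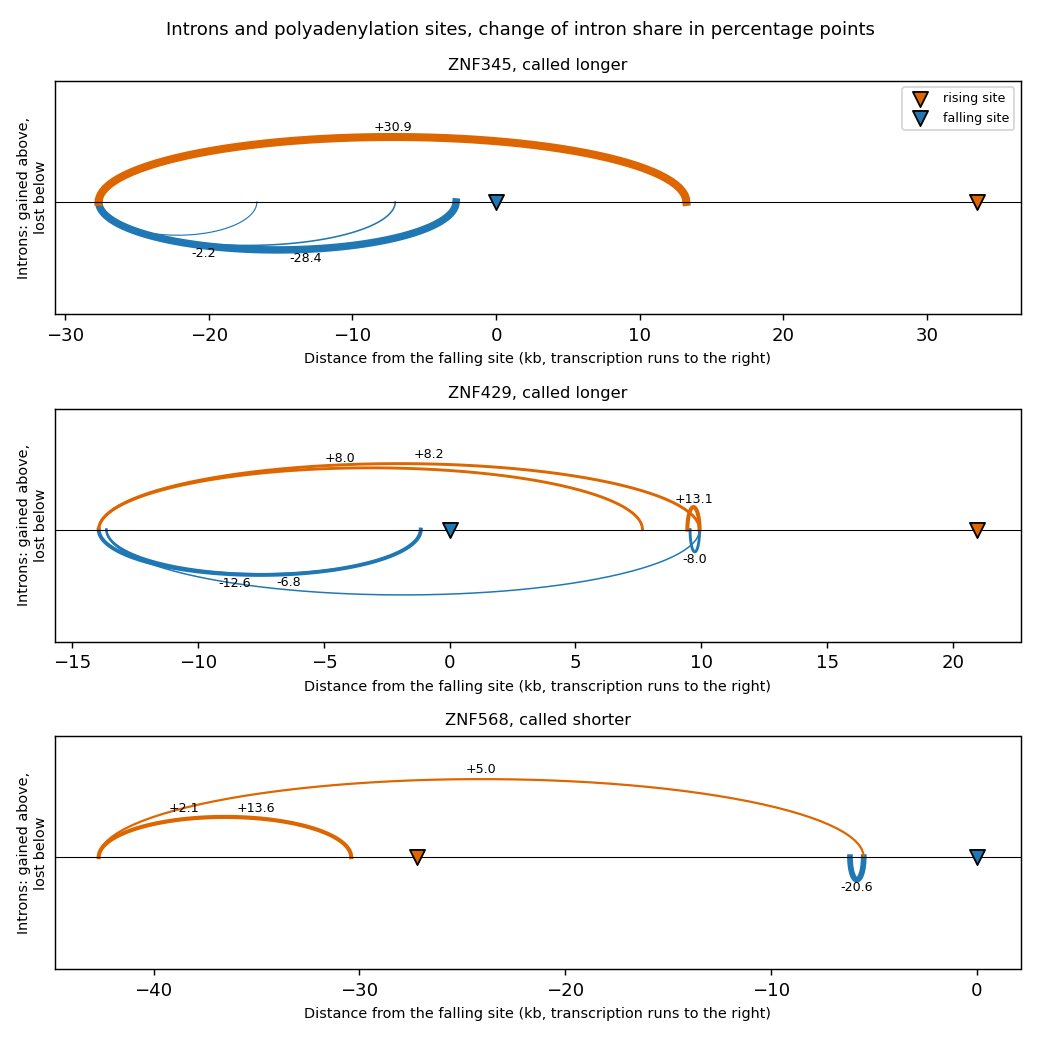
Introns (arcs, with the change of share in percentage points where it is 2 or more, orange above the line for gains and blue below it for losses in TDP-43 shRNA against scrambled shRNA) and poly(A) sites (triangles, orange rising and blue falling) of ZNF345, ZNF429 and ZNF568, by distance from the falling site in kb (horizontal axis). In ZNF345 and ZNF429 junctions that lost 28.4, 12.6 and 6.8 points end shortly before the falling site and gaining ones pass over it; in ZNF568 the gain of 13.6 points ends just before the rising site.

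KRAB zinc finger proteins act through corepressors, and these were looked up in the same tables. Of a list of 41 genes of KRAB repression and of heterochromatin more generally, 22 were in at least 1 of the 4 tables, with 10 in 3' end-seq, 5 in RNA-seq polyadenylation, 1 among cryptic sites and 15 in splicing. All 10 in 3' end-seq were called longer, against the background of 84.7%, and all 5 in RNA-seq were called distal, against 95.0%. TRIM28 itself was not listed. The number of genes that could have been listed is unknown, so the count of 22 has no background to be read against.

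The largest changes of the list in 3' end-seq were 0.473 for GATAD2B, 0.448 for the DNA methyltransferase gene DNMT3A, 0.435 for RBBP4 and 0.407 for MBD3 in the authors' deposited table. ATF7IP2 (0.342), PPHLN1 of the HUSH complex (0.326) and SETDB1, the histone H3 lysine 9 methyltransferase that TRIM28 recruits (0.281), came next in the authors' deposited table. GATAD2B, RBBP4, MBD3 and MBD2 encode subunits of the NuRD deacetylase complex. MBD2 (0.159), TRIM24 (0.118) and ZMYM2 (0.116) were the smallest in the authors' deposited table. ZMYM2 also had the list's cryptic site, in its 3' untranslated region, used at 15.5% in TDP-43 shRNA neurons and 4.13% in scrambled shRNA neurons in the authors' deposited table.

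In RNA-seq polyadenylation the values were 0.783 for the chromatin remodeller ATRX, 0.453 for DNMT3A, 0.384 for TRIM24, 0.300 for GATAD2A and 0.259 for CHD4 in the authors' deposited table. In splicing the largest change of 1 intron was 24.6 points in ATF7IP2 (adjusted p = 0.0092), 20.6 in DNMT3A (adjusted p = 2.97e-06), 15.6 in the methyltransferase gene EHMT1 (adjusted p = 3.12e-05) and 13.5 in CHD3 (adjusted p = 0.022) in the authors' deposited table. The other 11 (DAXX, TRIM33, CHD4, MTA1, PPHLN1, EHMT2, DNMT1, TRIM24, HDAC2, MBD3 and ATF7IP) had largest changes of 1.1 to 7.7 points in the authors' deposited table. DNMT3A and TRIM24 were thus in the same 3 tables, with longer and distal calls in both assays.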

How the data were processed

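RNA-seq and 3' end-seq (QuantSeq REV) libraries were made from neurons with TDP-43 or scrambled shRNA. Per the submitters' processing notes, fastp, Salmon, STAR, SAMtools and DESeq2 were used with hg38, with no version or role named. How sites and their changes were called is not given in the sources used here. All values are the authors' own comparisons in 5 deposited tables. The deposited score columns are changes of a usage index, of unstated scale, and of intron share, printed here as percentage points. The p-values are the authors' adjusted p-values, up to 0.05, from unstated tests. Cryptic usage is a deposited fraction, 1 value per group, printed as a percent. The deposited count is the number of introns per cluster. QuantSeq REV primes on poly(A), and internal priming at A-rich stretches was not tested.

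Genes were selected by symbol and counted with Python 3.11.15, pandas 2.3.3 and numpy 2.4.6, and plotted with matplotlib 3.10.9. Coordinates are those of the authors' hg38 tables. Sites were placed against RefSeq gene bounds (GRCh38.p14), and overlaps with other genes were taken without regard to strand. Sequences are RefSeq's, and 131 of the 153 genes had a promoter window. In the intron table a position is the last exonic base. Among cryptic sites, 2 outside the family were repeated with other values, and the first was kept, giving 457. Rising in 3' end-seq was read as rising with TDP-43 shRNA because 9 of 9 shared cryptic sites were rising sites. The functions for placement, spanning introns and splice sites were tested on simulated cases. No test was run over lists of genes, and paralogs with near-identical sequence may share reads, so gene assignment is uncertain. Named were genes in 2 or more tables, the 8 largest changes per direction and table (12 for cryptic sites by usage and 12 for splicing clusters), all shorter genes and listed corepressors; others are said to be chosen later. The genes and lists were chosen with earlier results of these data known.

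The 6 columns of values of a deposited gene table were not used, because no label ties its columns to samples, so the planned expression tests were not run. The planned count of KRAB and C2H2 patterns was not run either, as no protein sequences were used here.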

Additional observations from a re-analysis of the deposited data

How the results depend on the processing

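Of 26 alternative settings, 16 left a count within 1.5 times its main value and 10 moved it. These settings only filtered the authors' listed items or resolved older symbols, so none could reverse the direction of a gene. A change of at least 0.2 left 31 longer and 5 shorter genes of 62 and 11 in 3' end-seq, and requiring both sites inside the RefSeq gene left 7 shorter genes. The share called longer ran between 84.9 and 87.9% over these settings. An adjusted p at or below 0.01 and 0.001 left 8 and 4 of 14 distal genes in RNA-seq, and 39 and 21 of 84 splicing clusters, of which 34 changed by 10 points or more. Usage of at least 20% in TDP-43 shRNA neurons left 5 of 18 cryptic sites, and usage of at most 3% in scrambled shRNA neurons left 6. Fewer genes pass a stricter threshold by construction. No paired analysis was possible because the tables used hold 1 value per comparison or group, and no label ties the columns of the deposited gene table to samples; leaving out a replicate, the expression alternatives and the protein pattern alternative were not run for lack of such values or sequences. Depth is unknown, so genes that are not listed cannot be called unchanged.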

Other observations

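Other families of C2H2 zinc finger genes (symbols of ZBTB, ZSCAN, ZKSCAN or ZFP followed by a number) were listed about as often as ZNF genes, with 22 of 79 RefSeq genes (27.8%) in at least 1 table. In 3' end-seq 9 were called longer and 2 shorter, and in RNA-seq polyadenylation 3 were distal. The largest changes were 0.384 in ZSCAN12 and 0.371 in ZKSCAN7 in the authors' deposited table, and the shorter genes were ZFP2 (-0.200) and ZFP64 (-0.193) in the authors' deposited table. ZKSCAN4 was longer, distal and listed with a cryptic site used at 14.2% in TDP-43 shRNA neurons and 2.14% in scrambled shRNA neurons in the authors' deposited table. In splicing, ZKSCAN1 had the largest change of 1 intron, 19.5 points, in the authors' deposited table (adjusted p = 0.026).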
